A study of Homo sapiens with 16 samples.

Results

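DNA replication and nucleotide supply genes were followed as a set of 51 genes in HCC4006 cells, an EGFR-mutant line grown from a human non-small cell lung tumour. Members were chosen by name and not by a cut on their values, but with earlier results of these data known. For 50 members the locus was found by gene symbol. The locus of RRM2, which has no symbol in the deposited table, was found by its RefSeq transcript. All 51 had a mean of at least 1 FPKM (fragments per unit of transcript length and of sequencing depth). They are 51 of the 11647 loci at that level. The cells grew for 24 hours without drug and were then exposed for 24 hours to DMSO (vehicle), to 100 nM gefitinib, an inhibitor of the EGFR kinase, to 100 nM AZ1366, an inhibitor of the tankyrases, or to both at 100 nM each. Each of the 4 groups has 4 libraries of polyA RNA, 16 in all, and the labels do not say whether the 4 came from separate cultures, so a p-value here reflects only how these libraries vary, which may be technical. All groups are the same line, and the controls received DMSO.

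Before S phase, the origin recognition complex (ORC) together with CDC6 and CDT1 loads the MCM2 to MCM7 ring onto DNA, a step called licensing. The kinase CDC7 with its activator DBF4, together with MCM10, the GINS complex and TOPBP1, turns the loaded ring into an active helicase. DNA polymerase alpha with its primase starts each strand, polymerases delta and epsilon extend it on the sliding clamp PCNA, RPA covers the single strand, and ribonucleotide reductase (RRM1 with RRM2), TYMS, TK1 and DUT supply and guard the deoxynucleotide pool. Many of these genes are transcribed in a burst around S phase entry under the E2F transcription factors, so their RNA is low in cells that are not cycling. In bulk RNA, fewer cycling cells and less RNA per cell cannot be told apart.

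The promoters of 7 members are printed because they carry the letters shared by many of the genes described here, or lack them. In the RefSeq promoter table (GRCh38.p14, 250 bases before to 50 after each start), 59 promoters of 45 members were found. The 8-letter E2F-type words TTTCCCGC, TTTGGCGC, TTTCGCGC and TTTGCCGC, searched on both strands with overlapping matches allowed, occurred in at least 1 promoter of 24 of these 45 members (53.3%), against 3.99% of the 27305 genes in the table and 6.94% of the 8157 tested genes with a promoter. Each run below covers 160 bases before the start and 20 from it, 5′ to 3′ on the gene's strand, with E2F-type matches in capitals. A match is only a description of the letters.
CDC6, chr17:40287719-40287898 (plus strand), and MCM2, chr3:127598251-127598430 (plus strand), have their match just past the start, and in MCM2 matches on both strands overlap.
CDC6: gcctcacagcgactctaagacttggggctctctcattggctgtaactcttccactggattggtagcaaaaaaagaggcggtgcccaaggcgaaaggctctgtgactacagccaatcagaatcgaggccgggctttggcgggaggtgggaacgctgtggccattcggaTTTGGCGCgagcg
MCM2: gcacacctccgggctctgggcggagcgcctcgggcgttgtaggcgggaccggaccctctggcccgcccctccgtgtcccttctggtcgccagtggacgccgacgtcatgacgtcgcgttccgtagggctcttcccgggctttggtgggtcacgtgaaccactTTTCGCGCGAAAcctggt
MCM6, chr2:135876424-135876603 (minus strand), holds 2 such overlapping pairs, 152 and 90 bases before the start. POLE2, chr14:49688195-49688374 (minus strand), and UHRF1, chr19:4909341-4909520 (plus strand), hold 1 match each in these windows, 5 and 14 bases before it.
MCM6: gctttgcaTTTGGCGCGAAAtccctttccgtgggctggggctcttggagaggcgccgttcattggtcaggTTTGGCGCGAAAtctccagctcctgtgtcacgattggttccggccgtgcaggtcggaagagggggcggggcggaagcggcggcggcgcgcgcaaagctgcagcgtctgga
POLE2: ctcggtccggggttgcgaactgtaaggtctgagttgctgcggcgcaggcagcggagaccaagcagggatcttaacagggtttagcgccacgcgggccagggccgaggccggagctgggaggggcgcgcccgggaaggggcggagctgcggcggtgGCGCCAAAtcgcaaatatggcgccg
UHRF1: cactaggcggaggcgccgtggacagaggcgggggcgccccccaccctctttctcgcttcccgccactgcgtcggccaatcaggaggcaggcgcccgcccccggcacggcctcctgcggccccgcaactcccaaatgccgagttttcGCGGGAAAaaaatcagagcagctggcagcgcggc
ORC3, chr6:87589975-87590154 (plus strand), holds 1 match 12 bases before the start although its RNA changed little, and WDHD1, chr14:55027080-55027259 (minus strand), whose RNA fell strongly, holds none.
ORC3: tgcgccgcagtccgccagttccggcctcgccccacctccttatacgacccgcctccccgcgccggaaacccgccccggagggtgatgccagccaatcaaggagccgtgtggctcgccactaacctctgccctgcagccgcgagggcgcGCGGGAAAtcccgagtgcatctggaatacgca
WDHD1: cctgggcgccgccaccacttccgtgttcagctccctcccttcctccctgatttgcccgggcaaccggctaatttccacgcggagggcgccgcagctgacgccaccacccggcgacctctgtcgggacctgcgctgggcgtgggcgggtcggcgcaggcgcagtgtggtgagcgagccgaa
The other words searched were not more common in members in the same way. CCAAT occurred in 25 of 45 members (55.6%) and in 43.8% of tested genes, and the CHR words TTTGAA and TTCGAA in 4 of 45 (8.89%) and in 15.5% of tested genes. The 24 members with an E2F-type match had a median log2 change of -1.16 with both drugs (range -2.39 to -0.01) and the 21 without one had -0.98 (range -2.20 to -0.26), so the ranges overlapped almost fully.

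The libraries fit the labelled cell type in part. Of 10 lung epithelial markers 7 had a mean of at least 1 FPKM, led by the keratins KRT7, KRT8, KRT18 and KRT19, while the surfactant genes SFTPB and SFTPC and the protease NAPSA were below it. The leukocyte markers PTPRC and CD3E and the endothelial markers PECAM1, VWF and CDH5 were below 1 FPKM in every library, and of the other immune markers LYZ reached at most 1.07 FPKM and CD68, which many epithelial cells also express, 63.0. The summed immune list, nearly all CD68, was 34.2 to 38.1 FPKM in vehicle libraries and 58.2 to 64.2 with both drugs. The fibroblast and muscle list was 2.49 to 2.94 and 3.81 to 4.54, and the epithelial list 5205 to 5929 and 3582 to 3974. In the fibroblast and muscle list, COL3A1 was not found and DCN reached at most 0.179 FPKM in any library. COL1A1 reached at most 2.11, and the ACTA2 mean was 0.934 with vehicle and 2.26 with both. Whether these shifts take part in the results was not tested. The sum of FPKM over all loci was 433357 to 478179 per library, and read depth is unknown because the deposited values are FPKM. Changes across all loci also followed transcript length: the slope of the log2 difference from the vehicle mean per doubling of transcript length was -0.0216 to 0.0266 in vehicle libraries, -0.15 to -0.048 with gefitinib, -0.168 to -0.036 with AZ1366 and -0.239 to -0.19 with both. Members with longer transcripts changed more negatively (Spearman rho over 51 members -0.46 for gefitinib, -0.70 for AZ1366 and -0.58 for both, members of 1 set of libraries and not independent), and counts after a correction of each library for length and GC content are given for each contrast. The share of all loci called after that correction is not given beside them, so those counts cannot be set against all loci. AZ1366 replicate 1 had the mildest slope of its group, -0.036.

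Summed over the 51 members, RNA levels stepped down from vehicle through each drug to the pair. The sum was 1870 ± 34.0 FPKM with vehicle (mean ± SD, n = 4, as for every mean below; 1820 to 1894), 1685 ± 108 with AZ1366 (1536 to 1789), 1355 ± 39.3 with gefitinib (1318 to 1391) and 991 ± 16.1 with both (978 to 1014). The ranges of the 4 groups did not overlap. As a share of all FPKM, the members made up 0.422% with vehicle, 0.369% with AZ1366, 0.300% with gefitinib and 0.209% with both. Group means ran in the same order, vehicle highest and both drugs lowest, in 41 of 51 members. In 7 members, ORC3, GINS3, PRIM2, POLE2, PCNA, RFC3 and TYMS, the order differed only in that the AZ1366 mean lay above the vehicle mean. After the length and GC correction their log2 change with AZ1366 stayed above 0 only in PRIM2 (0.06). In the others it lay between -0.18 (RFC3) and -0.04 (PCNA). ORC2, DUT and RPA3 each had an order of their own, and in DUT and RPA3 the AZ1366 mean also lay above the vehicle mean.

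**Figure D1:**
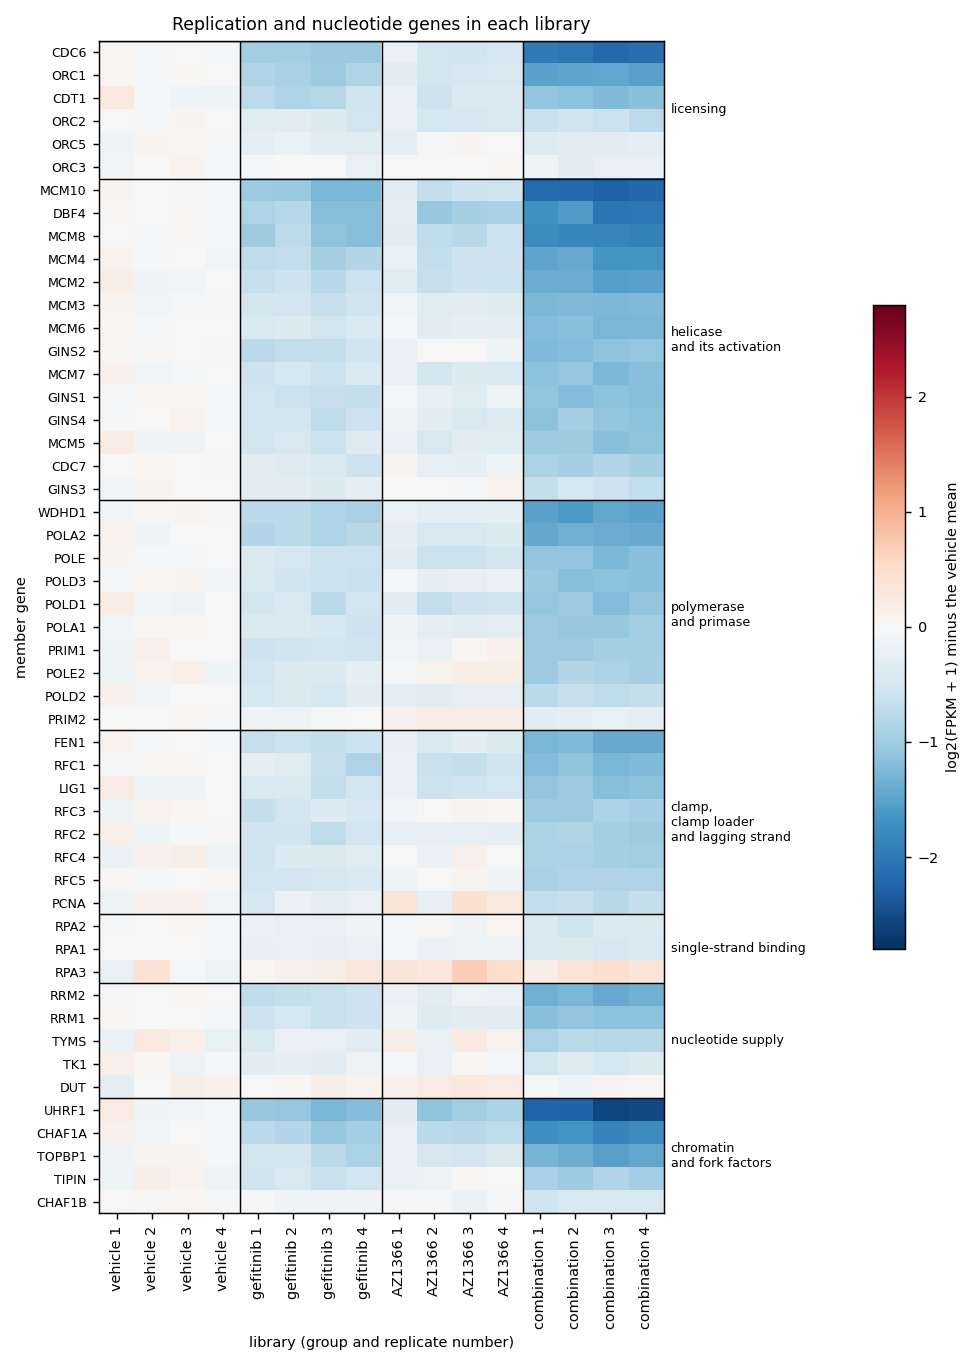
Rows are the 51 members grouped by role, columns the 16 libraries, and colour the difference of log2(FPKM + 1) from the vehicle mean (blue lower, red higher). The combination columns are blue for nearly every member, the gefitinib and AZ1366 columns paler, and RPA3 and DUT do not follow.

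With gefitinib alone, 46 of 51 members fell and none rose by limma (adjusted p under 0.05 over all tested loci). Across all tested loci 36.9% fell and 27.7% rose. The median member change was -0.53 on the scale of log2(FPKM + 1), which understates changes of low genes, against -0.06 over all loci. All 14 helicase genes and all 8 clamp and lagging-strand genes fell, as did 5 of 6 licensing genes, 9 of 10 polymerase and primase genes, 4 of 5 chromatin and fork factors, 4 of 5 nucleotide genes and 2 of 3 RPA subunits. The members that did not pass were ORC3, PRIM2, RPA3, DUT and CHAF1B. After the length and GC correction 48 fell.

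With AZ1366 alone, 32 of 51 members fell and 3 rose, PRIM2, RPA3 and DUT, against 39.8% and 18.6% of all tested loci. The median was -0.23 for members and -0.10 for all loci. Median-ratio scaling of the libraries moved the median of all loci from -0.10 to 0.004 in this contrast and left 25 members lower and 5 higher, with all-locus calls at 3534 lower and 3540 higher in place of 4633 and 2168. Falls were frequent among helicase genes (11 of 14), polymerase and primase genes (7 of 10) and licensing genes (4 of 6), and less so among clamp and lagging-strand genes (4 of 8), nucleotide genes (2 of 5) and RPA subunits (1 of 3), a difference between roles that was not tested. Without vehicle replicate 1 and AZ1366 replicate 1 the member counts were 33 lower and 3 higher, given without the share of all loci. After the length and GC correction they were 40 and 1, and RPA3 was the member still called higher. That correction added ORC3, ORC5, CDC7, PRIM1, RFC3, RFC4, RFC5, RPA2 and TIPIN to the members called lower and took away CDT1 (adjusted p = 0.0527), so that 7 of 8 clamp and lagging-strand genes fell beside 12 of 14 helicase genes, and the lower share of clamp genes was not kept.

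With both drugs, 49 of 51 members fell, RPA3 rose and DUT alone did not pass, against 49.4% of all tested loci lower and 29.9% higher. The median member change was -1.105, while that of all loci was -0.15 (0.003 after median-ratio scaling, which left 46 members lower and 1 higher). MCM10, UHRF1, CDC6, CHAF1A, MCM8 and DBF4 kept the smallest shares of their vehicle level, between 15.9% and 24.7%. The 32 members called lower with AZ1366 alone were also called lower with gefitinib and with both, in contrasts that share the vehicle libraries. The share of all loci called lower in all 3 was not counted. With the length and GC correction 50 members fell, DUT among them, and RPA3 was no longer called (log2 change 0.19, adjusted p = 0.108 by limma).

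**Figure D2:**
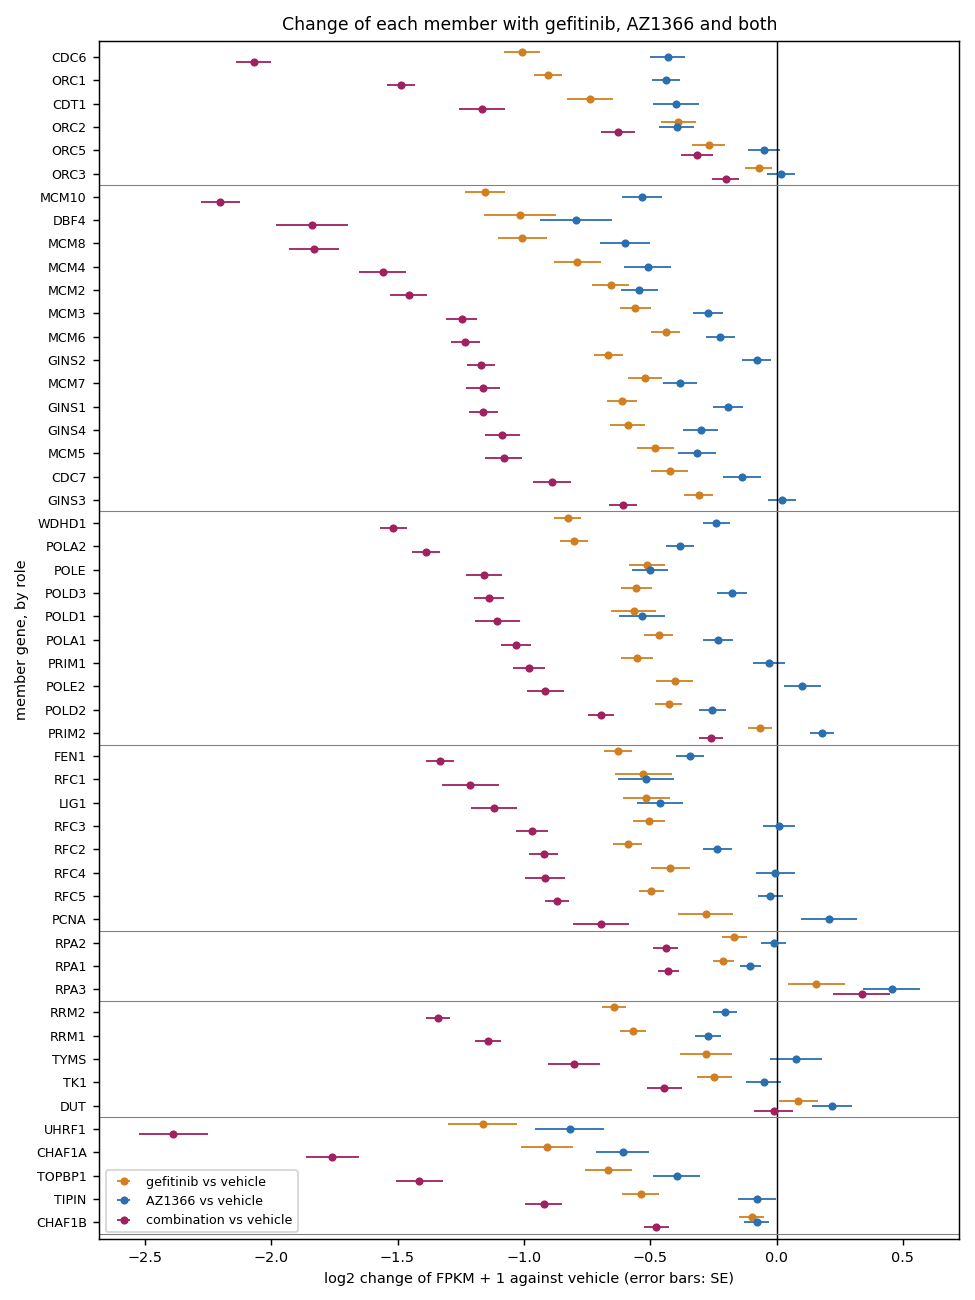
Points are the log2 change of FPKM + 1 of each member against vehicle with gefitinib (orange), AZ1366 (blue) and both (purple), with bars for the standard error of the limma fit. Purple points lie farthest left in nearly all rows, from -2.39 for UHRF1 to 0.34 for RPA3.

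Adding AZ1366 to gefitinib lowered 47 members and raised none (37.2% and 15.3% of all tested loci), with a median of -0.54 beside -0.10 for all loci. Adding gefitinib to AZ1366 lowered 50 and raised none (35.7% and 26.9%), with a median of -0.87 beside -0.05. Set directly against AZ1366 at the same concentration, gefitinib gave lower levels of 39 members and higher levels of none, while 17.9% of all loci were lower and 28.1% higher. At an unadjusted p under 0.05 the number of members higher was also 0 in these 3 contrasts and in gefitinib against vehicle, and 0 for the interaction. The median difference, gefitinib minus AZ1366, was -0.29 for members and 0.04 for all loci. The 12 members without a called difference included MCM2, MCM5, MCM7, DBF4, POLE, POLD1, RFC1 and LIG1, and ORC2 had a difference of 0.01 ± 0.069 (log2 ± SE, adjusted p = 0.945). After the length and GC correction 50 members were lower for both against gefitinib, 49 for both against AZ1366 and 44 for gefitinib against AZ1366, where MCM2, MCM5, MCM7, POLE, POLD1 and LIG1 were then called lower and ORC5 was not (limma adjusted p = 0.081).

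Among licensing factors, CDC6 and ORC1 fell most and ORC2, ORC3 and ORC5 least. CDC6, the ATPase that helps ORC load the MCM ring (hg19 chr17:38444146-38459413, promoter printed above), was measured at 35.9, 33.9, 34.9 and 33.8 FPKM in vehicle libraries, 17.2, 17.03, 16.3 and 16.4 with gefitinib, 30.4, 24.1, 23.03 and 24.7 with AZ1366 and 8.05, 7.76, 6.93 and 7.26 with both. All 4 groups were separate. CDC6 fell by 1.01 ± 0.070 (log2 ± SE) with gefitinib, by 0.43 ± 0.070 with AZ1366 and by 2.07 ± 0.070 with both (limma adjusted p = 1.31e-09, 0.000103 and 4.57e-14), to 21.7% of its vehicle level. ORC3, a core subunit of ORC and the most abundant licensing member per transcript length, stood at 33.7, 36.04, 38.2 and 35.02 FPKM in vehicle libraries, 34.1, 35.7, 35.3 and 30.9 with gefitinib, 35.9, 36.2, 35.9 and 36.7 with AZ1366 and 32.9, 28.95, 30.97 and 30.98 with both. Its vehicle, gefitinib and AZ1366 libraries overlapped, and those with both drugs lay below all vehicle and AZ1366 libraries, a fall of 0.20 ± 0.055 (adjusted p = 0.00258).

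ORC1, the ATPase subunit of ORC, fell more than ORC2, ORC3 and ORC5. Its libraries ranged from 8.58 to 9.39 FPKM with vehicle and from 2.50 to 2.63 with both, a fall of 1.49 ± 0.055 on the log2 scale (limma adjusted p = 1.47e-13). The ratio of ORC1 to ORC3 was 0.252 ± 0.0185 with vehicle, 0.177 ± 0.0123 with AZ1366, 0.129 ± 0.0155 with gefitinib and 0.0831 ± 0.00524 with both, without overlap between groups. ORC4 and ORC6 belong to the wider list described at the end, where ORC6 fell by 1.76 ± 0.093 with both drugs and ORC4 read -0.01 ± 0.073. The ORC4 locus spans 668 kb on hg19 and overlaps ACVR2A and MBD5, so its reads may be shared. Among all 6 subunits the highest group mean was 3.97 times the lowest with vehicle (ORC3 over ORC1) and 12.2 times with both (ORC3 over ORC6).

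ORC2 was lower with either drug to about the same degree. It was measured at 11.5, 11.2, 12.4 and 11.6 FPKM in vehicle libraries, 8.95, 9.26, 8.74 and 7.82 with gefitinib, 10.1, 7.96, 8.16 and 8.45 with AZ1366 and 7.28, 7.57, 7.34 and 6.64 with both. The gefitinib and AZ1366 libraries overlapped, all lay below vehicle, and those with both were the lowest. ORC5 read 17.9, 20.1, 19.9 and 18.7 FPKM in vehicle libraries, 15.7, 16.8, 15.5 and 14.9 with gefitinib, 15.98, 18.8, 20.1 and 19.03 with AZ1366 and 14.6, 15.2, 15.4 and 15.5 with both. It fell with gefitinib (by 0.27 ± 0.063, limma adjusted p = 0.00132) and with both (by 0.31 ± 0.063, adjusted p = 0.00021), and its libraries with both overlapped those with gefitinib. After the length and GC correction ORC5 was also called lower with AZ1366 (-0.34, adjusted p = 3.59e-05). CDT1, the MCM loading factor, fell by 1.16 ± 0.091 with both drugs (adjusted p = 2.22e-09) and its interaction was -0.03 ± 0.13.

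All 14 genes of the helicase and its activation fell with gefitinib and with both drugs. MCM10, a factor needed to activate the loaded helicase, had the largest change of the group and was measured at 14.01, 13.4, 12.8 and 13.03 FPKM in vehicle libraries, 6.10, 5.93, 4.86 and 4.92 with gefitinib, 10.6, 7.90, 8.54 and 8.77 with AZ1366 and 2.19, 2.18, 1.97 and 2.11 with both. The 4 groups were separate, and its level with both drugs was 15.9% of vehicle, a fall of 2.20 ± 0.079 (limma adjusted p = 9.28e-14). DBF4, the activator of the CDC7 kinase, fell by 1.84 ± 0.14 with both, and its locus overlaps SLC25A40 on hg19, so reads may be shared. CDC7 itself fell less, by 0.89 ± 0.074.

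The 6 subunits of the MCM ring fell together. Their summed means were 296 FPKM with vehicle, 227 with AZ1366, 199 with gefitinib and 121 with both, and with both drugs each subunit stood at 31.9% (MCM4) to 46.2% (MCM5) of vehicle. MCM7, the most abundant, was measured at 95.9, 83.6, 84.5 and 87.2 FPKM in vehicle libraries, 58.1, 62.3, 57.8 and 65.4 with gefitinib, 76.2, 61.3, 67.04 and 64.6 with AZ1366 and 39.1, 40.7, 36.2 and 38.6 with both. Its gefitinib and AZ1366 libraries overlapped, and the vehicle and combination libraries lay apart from both. The MCM7 locus overlaps several other genes, TAF6 and AP4M1 among them.

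MCM6 was 1 of the 2 members, with RRM2, in which the AZ1366 changes with and without gefitinib differed with the smallest adjusted p. Its libraries were at 40.8, 38.4, 38.99 and 39.8 FPKM in vehicle libraries, 28.9, 29.9, 27.5 and 29.3 with gefitinib, 38.4, 31.5, 32.3 and 32.97 with AZ1366 and 16.5, 17.04, 15.7 and 15.7 with both. AZ1366 replicate 1 reached the vehicle range, and the other AZ1366 libraries lay between vehicle and gefitinib. MCM6 fell by 0.22 ± 0.057 with AZ1366 alone and by 0.79 ± 0.057 with AZ1366 added to gefitinib (limma adjusted p = 0.00342 and 3.69e-08), and the interaction was -0.57 ± 0.081 (adjusted p = 0.00209). MCM8, a helicase paralog that acts in homologous recombination, fell by 1.83 ± 0.098 with both, and within the ring MCM4 had the largest fall, 1.56 ± 0.093.

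The GINS complex, 4 subunits that join CDC45 and the MCM ring in the active helicase, fell with gefitinib in all 4 subunits, and with AZ1366 alone in GINS1 and GINS4. GINS2 was measured at 34.5, 34.5, 33.7 and 32.3 FPKM in vehicle libraries, 19.5, 20.6, 21.01 and 22.6 with gefitinib, 29.6, 33.3, 33.9 and 30.9 with AZ1366 and 13.7, 13.97, 14.8 and 15.3 with both. Its AZ1366 libraries overlapped vehicle (-0.08 ± 0.057, limma adjusted p = 0.24), while the gefitinib libraries lay below both and those with both drugs lower still. GINS3, the member of the helicase group that changed least, read 8.67, 9.65, 9.17 and 9.04 FPKM in vehicle libraries, 7.29, 7.30, 6.74 and 7.41 with gefitinib, 9.11, 9.27, 8.88 and 9.88 with AZ1366 and 5.35, 6.18, 5.82 and 5.28 with both. Its AZ1366 libraries again overlapped vehicle, and it fell by 0.61 ± 0.057 with both (adjusted p = 2.29e-08). GINS1 and GINS4 fell by 1.16 ± 0.059 and 1.09 ± 0.069 with both.

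**Figure D3:**
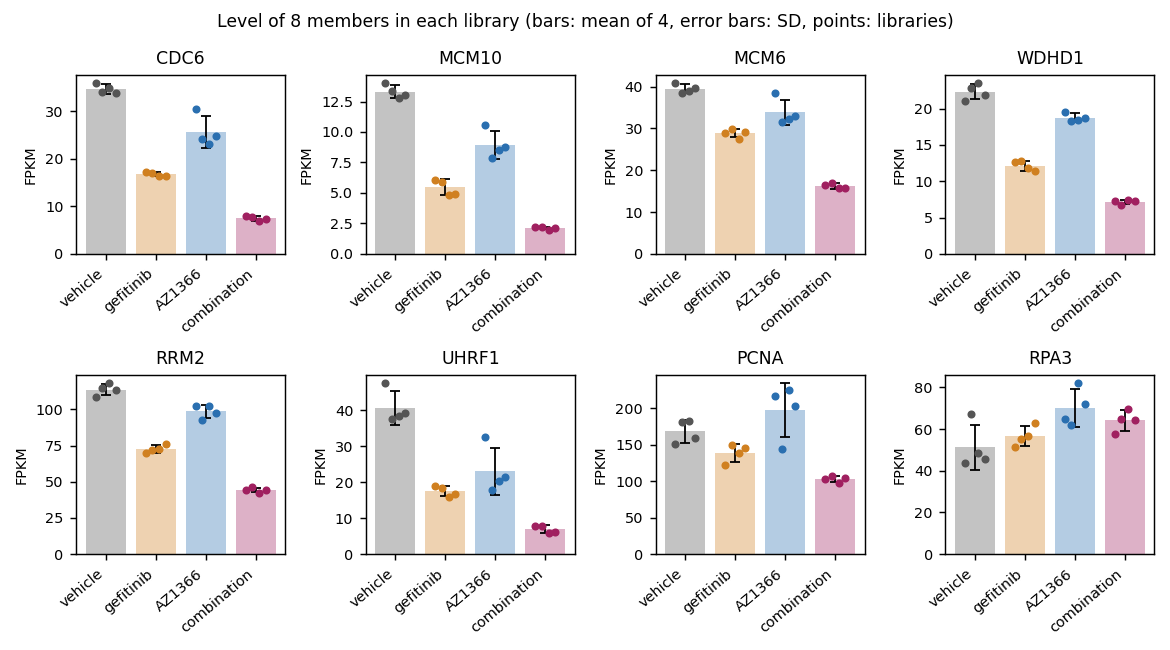
Bars are group means in FPKM, error bars the SD of 4 libraries and points single libraries, for 8 members. In CDC6, MCM10, WDHD1 and RRM2 the 4 groups do not overlap, in PCNA the AZ1366 libraries spread from 144 to 226 FPKM, and the 3 RPA3 means with a drug lie above that of vehicle.

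All 10 polymerase and primase genes fell with both drugs. WDHD1, the AND-1 protein that links polymerase alpha to the helicase, changed most and was measured at 21.1, 22.8, 23.5 and 21.9 FPKM in vehicle libraries, 12.7, 12.8, 11.8 and 11.4 with gefitinib, 19.6, 18.4, 18.4 and 18.7 with AZ1366 and 7.27, 6.69, 7.44 and 7.23 with both. The 4 groups were separate. WDHD1 fell by 0.83 ± 0.053 with gefitinib, by 0.24 ± 0.053 with AZ1366 and by 1.52 ± 0.053 with both (limma adjusted p = 4.69e-10, 0.0012 and 7.08e-14). POLA2, the second subunit of polymerase alpha, followed at a fall of 1.39 ± 0.055 with both. The catalytic subunits POLA1, POLD1 and POLE fell by 1.03 ± 0.059, 1.11 ± 0.089 and 1.16 ± 0.071.

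POLD2, an accessory subunit of polymerase delta and the most abundant gene of the group, stood at 91.3, 79.96, 83.4 and 83.97 FPKM in vehicle libraries, 60.04, 63.3, 59.8 and 67.7 with gefitinib, 71.4, 67.97, 71.8 and 71.9 with AZ1366 and 49.7, 53.8, 51.1 and 52.9 with both. The 4 groups were separate here too, with a fall of 0.69 ± 0.052 with both (limma adjusted p = 1.46e-09). POLE2, the small subunit of polymerase epsilon, and its catalytic partner POLE changed by unequal amounts. Their order turned after the length and GC correction for gefitinib alone and for both drugs together. Before the correction, the ratio of POLE2 to POLE was 2.83 ± 0.388 with vehicle, 4.64 ± 0.785 with AZ1366, 3.21 ± 0.475 with gefitinib and 3.95 ± 0.421 with both, and the AZ1366 and combination ranges (3.49 to 5.26 and 3.40 to 4.43) lay above the vehicle range (2.43 to 3.23). POLE2 did not pass with AZ1366 alone (0.10 ± 0.073, limma adjusted p = 0.24), where POLE fell by 0.50 ± 0.071 (adjusted p = 3.33e-05). POLE has the longer transcript. After the correction POLE2 read -0.12 and POLE -0.26 with AZ1366 (adjusted p = 0.0723 and 8.12e-05), and with both drugs POLE2 fell by 1.19 and POLE by 0.82, so POLE2 was then the subunit that fell more. With gefitinib POLE2 read -0.40 and POLE -0.51 before the correction, and -0.55 and -0.36 after it.

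PRIM2, the large primase subunit, was the polymerase gene that moved least. It was measured at 16.1, 16.1, 16.7 and 15.3 FPKM in vehicle libraries, 14.7, 14.95, 15.6 and 15.9 with gefitinib, 17.4, 18.8, 18.6 and 18.4 with AZ1366 and 12.6, 13.2, 13.8 and 13.4 with both. Its AZ1366 libraries lay above all vehicle libraries and its combination libraries below all others. PRIM2 rose by 0.18 ± 0.048 with AZ1366 (limma adjusted p = 0.00434, not called after the length and GC correction, 0.06) and fell by 0.20 ± 0.048 when AZ1366 was added to gefitinib (adjusted p = 0.00299). PRIM1, the catalytic primase subunit, fell by 0.98 ± 0.064 with both and read -0.03 ± 0.064 with AZ1366 alone, where it was called lower after the length and GC correction (-0.35, adjusted p = 0.000309).

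All 8 clamp, clamp loader and lagging-strand genes fell with gefitinib and with both drugs. FEN1, the flap nuclease of Okazaki fragment maturation, changed most and stood at 62.9, 57.1, 58.1 and 57.8 FPKM in vehicle libraries, 37.6, 38.4, 36.6 and 38.7 with gefitinib, 50.02, 43.6, 46.98 and 44.5 with AZ1366 and 23.7, 24.4, 21.6 and 21.6 with both. The 4 groups were separate, and the fall with both was 1.33 ± 0.055 (limma adjusted p = 6.06e-13). LIG1, the ligase that seals the fragments, fell by 1.12 ± 0.092. Within the clamp loader, RFC1, the large subunit, fell by 0.52 ± 0.11 with AZ1366 and RFC2 by 0.23 ± 0.058, whereas RFC3, RFC4 and RFC5 read 0.01 ± 0.064, -0.0049 ± 0.078 and -0.02 ± 0.048 and were not called. With the length and GC correction all 5 subunits were called lower with AZ1366, RFC3 at -0.18, RFC4 at -0.24 and RFC5 at -0.30 (adjusted p = 0.00263, 0.00985 and 0.000299), so this split was not kept. With both drugs the 5 subunits fell by 0.87 to 1.21 on the log2 scale, and their summed means went from 167 to 83.2 FPKM.

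PCNA, the sliding clamp and the most abundant member, was measured at 151, 182, 183 and 159 FPKM in vehicle libraries, 122, 149, 138 and 145 with gefitinib, 217, 144, 226 and 202 with AZ1366 and 104, 108, 98.03 and 105 with both. With AZ1366, 3 libraries lay above all vehicle libraries and replicate 2 below them, and the combination libraries were the lowest without overlap. PCNA fell by 0.28 ± 0.11 with gefitinib and by 0.69 ± 0.11 with both (limma adjusted p = 0.0331 and 1.63e-05), and its 0.21 ± 0.11 with AZ1366 was not called (adjusted p = 0.114). After the length and GC correction the AZ1366 change of PCNA was -0.04 (limma adjusted p = 0.779). Reads of PCNA can be shared with PCNA-AS1, which overlaps it, and with 3 annotated pseudogenes.

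The 3 subunits of RPA, the single-strand DNA binding complex, did not move as a unit. RPA2 was measured at 35.5, 36.99, 38.04 and 35.9 FPKM in vehicle libraries, 32.4, 31.6, 32.03 and 33.9 with gefitinib, 35.9, 37.2, 34.3 and 37.8 with AZ1366 and 27.4, 24.6, 27.8 and 27.3 with both. Its AZ1366 libraries overlapped vehicle (called lower after the length and GC correction, -0.15), the gefitinib libraries lay below both, and it fell by 0.44 ± 0.050 with both drugs (limma adjusted p = 3.21e-07). RPA1, the largest subunit, fell by 0.43 ± 0.042. RPA3, the smallest subunit, read 43.7, 67.1, 48.4 and 45.8 FPKM in vehicle libraries, 51.6, 55.02, 56.7 and 62.8 with gefitinib, 64.6, 61.7, 81.9 and 71.9 with AZ1366 and 57.7, 64.99, 69.7 and 64.5 with both. Vehicle replicate 2 lay within the range of the combination libraries, so the groups overlapped, and RPA3 rose by 0.46 ± 0.11 with AZ1366 and by 0.34 ± 0.11 with both (adjusted p = 0.00262 and 0.0111). Its locus spans 242 kb in the file and overlaps LOC729852.

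Ribonucleotide reductase fell most among the nucleotide supply genes. RRM2, its small subunit, which is made in S phase (hg19 chr2:10262695-10271546), was measured at 109, 114, 118 and 114 FPKM in vehicle libraries, 69.5, 71.6, 72.9 and 75.98 with gefitinib, 102, 92.4, 102 and 97.8 with AZ1366 and 44.4, 46.1, 42.4 and 44.4 with both. The 4 groups were separate, and RRM2 fell by 0.64 ± 0.048 with gefitinib, by 0.20 ± 0.048 with AZ1366 and by 1.34 ± 0.048 with both (limma adjusted p = 3.73e-09, 0.0018 and 9.37e-14). RRM2 has 3 annotated pseudogenes, whose reads may be shared with it. RRM1, the large subunit, fell by 1.14 ± 0.051 with both. The ratio of RRM2 to RRM1 was 1.25 ± 0.0655 with vehicle (1.152 to 1.298) and 1.09 ± 0.0307 with both (1.04 to 1.11), without overlap.

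The other 3 nucleotide genes moved less. TK1, thymidine kinase and the most abundant of the group, stood at 139, 130.2, 113 and 122 FPKM in vehicle libraries, 101, 106, 103 and 114 with gefitinib, 123, 109, 131 and 123 with AZ1366 and 87.8, 97.5, 88.8 and 94.7 with both. The libraries with both drugs lay below all others, a fall of 0.44 ± 0.068 (limma adjusted p = 1.19e-05), while gefitinib and AZ1366 libraries overlapped vehicle. TYMS, thymidylate synthase, ranged from 37.9 to 52.7 FPKM with vehicle, 38.2 to 52.7 with AZ1366, 32.7 to 39.4 with gefitinib and 23.3 to 25.98 with both. It fell by 0.80 ± 0.10 with both, and its locus overlaps ENOSF1, CLUL1 and C18orf56, so reads may be shared.

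DUT, the dUTPase that keeps uracil out of DNA, did not follow the group. It was measured at 42.5, 50.3, 57.5 and 55.2 FPKM in vehicle libraries, 50.4, 53.2, 58.6 and 54.9 with gefitinib, 55.7, 59.9, 62.5 and 60.5 with AZ1366 and 48.98, 47.5, 53.8 and 52.4 with both. Only the combination and AZ1366 libraries were separate. DUT rose by 0.22 ± 0.078 with AZ1366 (limma adjusted p = 0.0229, not called after the length and GC correction) and read -0.01 ± 0.078 with both (adjusted p = 0.894, and -0.29 with adjusted p = 9.62e-05 after that correction). It has 8 annotated pseudogenes, the most of any member, so its reads may be shared.

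UHRF1, which brings the maintenance methyltransferase to newly replicated DNA, had the largest log2 change of all members with both drugs. It was measured at 47.4, 37.4, 38.3 and 39.1 FPKM in vehicle libraries, 18.9, 18.4, 15.9 and 16.8 with gefitinib, 32.6, 17.9, 20.2 and 21.4 with AZ1366 and 7.83, 7.80, 5.99 and 6.16 with both (hg19 chr19:4909510-4962165). Gefitinib and AZ1366 libraries overlapped, vehicle lay above and the combination below. UHRF1 fell by 1.16 ± 0.14 with gefitinib, by 0.82 ± 0.14 with AZ1366 and by 2.39 ± 0.14 with both (limma adjusted p = 1.09e-06, 0.000132 and 3.63e-11).

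The 2 subunits of chromatin assembly factor 1, which deposits histones behind the fork, differed in size of change. CHAF1A ranged from 9.87 to 11.5 FPKM with vehicle and from 2.15 to 2.62 with both, a fall of 1.76 ± 0.10 (limma adjusted p = 6.13e-11). CHAF1B read 10.6, 10.9, 11.1 and 10.2 FPKM in vehicle libraries, 10.3, 9.81, 9.66 and 9.96 with gefitinib, 10.4, 10.3, 9.41 and 10.2 with AZ1366 and 6.998, 7.53, 7.60 and 7.54 with both. Its gefitinib and AZ1366 libraries overlapped vehicle, and only those with both were separate, a fall of 0.48 ± 0.049 (adjusted p = 9.41e-08). TOPBP1, an activator of the helicase and of the ATR kinase, and TIPIN, a fork protection factor, fell by 1.41 ± 0.092 and 0.92 ± 0.074 with both.

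The interaction asks whether the AZ1366 change on the log2 scale differed with gefitinib present: the change from gefitinib to both, minus the change from vehicle to AZ1366. It was below 0 in 49 of 51 members, above 0 in ORC2 (0.16 ± 0.098, limma adjusted p = 0.481) and ORC5 (0.01 ± 0.090, adjusted p = 0.976). In 20 members it passed the test, all below 0, where 1.49% of all tested loci passed below 0 and 0.326% above. The median was -0.30 for members and -0.001 for all loci. Called members made up 6 of 14 helicase genes, 5 of 10 polymerase and primase genes, 4 of 8 clamp and lagging-strand genes, 3 of 5 nucleotide genes, 1 of 6 licensing genes (CDC6), 1 of 5 chromatin and fork factors (CHAF1B) and 0 of 3 RPA subunits.

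**Figure D4:**
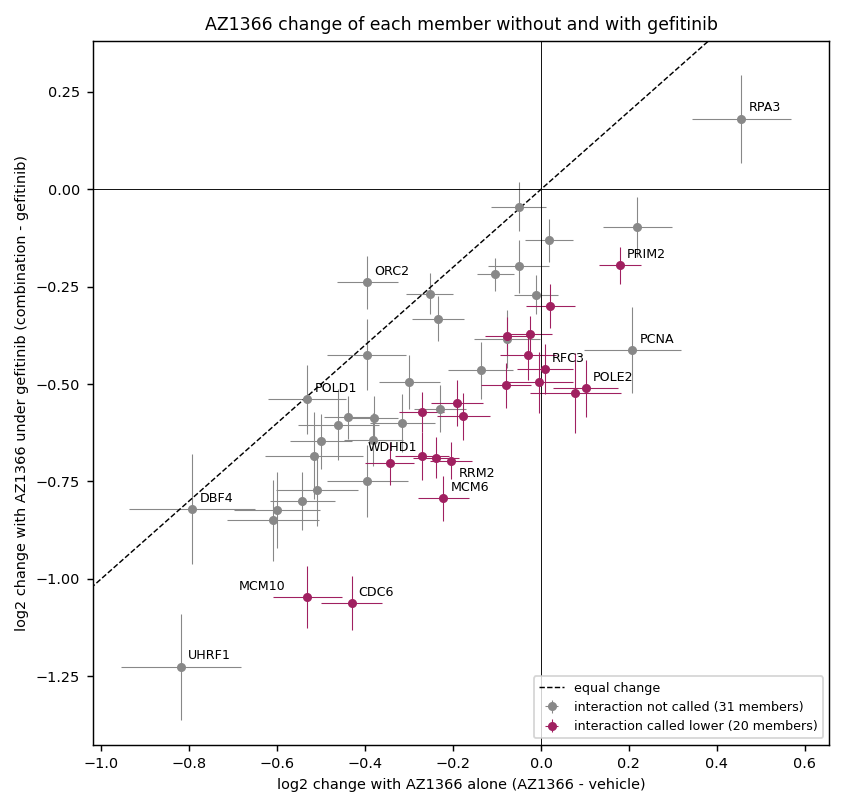
Each point is a member, with the log2 change by AZ1366 alone on the horizontal axis and by AZ1366 added to gefitinib on the vertical axis, bars for the standard error and a dashed line where both are equal. Of 51 points 49 lie below the line, and the 20 in purple have a called interaction.

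CDC6 had the most negative interaction, -0.63 ± 0.099 (limma adjusted p = 0.00445): the changes with each drug alone sum to -1.44 and the change with both was -2.07. RRM2 had the smallest adjusted p (-0.49 ± 0.068, 0.00204), with single changes that sum to -0.85 and -1.34 with both. POLE2 (-0.61 ± 0.10), TYMS (-0.60 ± 0.15), MCM10 (-0.52 ± 0.11), RFC3 (-0.47 ± 0.090) and WDHD1 (-0.45 ± 0.075) were among the other members called. PCNA had an interaction of -0.62 ± 0.16 that missed the threshold (adjusted p = 0.0503). DBF4, POLD1, POLD2 and CDT1, which fell in each contrast against vehicle (CDT1 with AZ1366 not after the length and GC correction), had interactions between -0.03 and -0.007, none of them called. After that correction their interactions were 0.03, -0.18, -0.09 and -0.20, in the same order, and were not called.

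The count of called interactions moved with single libraries. It was 10 without vehicle replicate 4, 11 without gefitinib replicate 2 or AZ1366 replicate 4, 12 without combination replicate 3 or 4, and 13 without gefitinib replicate 3 or combination replicate 1, in place of 20. Over the 16 fits that each leave out 1 library, all-locus calls below 0 ranged from 0.713% to 2.22% and members below 0 from 47 to 49. CDC6, GINS2, MCM3, MCM6, POLE2, PRIM2, RFC3, RRM2 and WDHD1 were called in all 27 settings tried, these 16 included. The settings refit the same libraries and are not independent. Over the alternatives the highest limma adjusted p reached 0.0497 for MCM3 and 0.0468 for GINS2. The share of all loci called in every setting was not counted. After the length and GC correction 24 members were called, among them 9 of 14 helicase genes and 6 of 10 polymerase and primase genes. The counts of the other roles were unchanged. MCM2, MCM5, MCM7, POLA1 and POLA2 were added and PRIM1 was no longer called. Of the 24 members with an E2F-type match 9 had a called interaction, and of the 21 with a promoter but no match 10 did.

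Genes of the same pathways outside the 51 fell more often than they rose, but less uniformly than the members. A wider list of 63 replication, deoxynucleotide and purine or pyrimidine synthesis genes had 61 tested members. Against vehicle, 42 fell and 6 rose with gefitinib, 33 fell and 2 rose with AZ1366, and 46 fell and 6 rose with both (all tested loci: 36.9% and 27.7%, 39.8% and 18.6%, 49.4% and 29.9%), with a median of -0.71 for both. Its 27 other replication genes had a median of -1.0 with both drugs, and its 15 deoxynucleotide and folate genes -0.20, beside -0.15 for all loci. ORC6, another ORC subunit, TOP2A, the type II topoisomerase of dividing cells, and TOP1 had its largest falls with both, by 1.76 ± 0.093, 1.72 ± 0.11 and 1.67 ± 0.14. POLD4, the smallest subunit of polymerase delta, SAMHD1, which breaks down deoxynucleotide triphosphates, and CTPS2, a CTP synthase, had its largest rises, 0.68 ± 0.054, 0.48 ± 0.087 and 0.45 ± 0.048 (limma adjusted p of these 6 genes at most 6.44e-05). The interaction passed in 5 of the 61, all below 0 (1.49% of all tested loci): CDC45, ASF1B, DSCC1, DNA2 and PRPS1.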

How the data were processed

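RNA levels of 16 libraries were taken as the authors deposited them, as FPKM for each of 24293 loci. The tools named in the submitters' processing notes are TopHat 1.4.1, Cufflinks 1.3.0 and Cuffdiff, with hg19 as genome build; their roles and the annotation are not given in the sources used here. Read counts were not analysed here, so no counting error can be given. No per-sample column was left out (0) and 0 pairs of libraries were identical. Per the labels' protocols, the kits were miRNeasy for RNA and TruSeq RNA v2 for libraries; strand is not stated, so reads of overlapping genes cannot be told apart (9 members overlap another locus and 10 have annotated pseudogenes).

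Loci with a mean of at least 1 FPKM (11647) were fitted on log2(FPKM + 1) with limma 3.58.1 in R 4.3.3 (4 treatment groups, mean-variance trend, 12 residual degrees of freedom). Tests were two-sided, and p-values were adjusted by Benjamini-Hochberg over all tested loci at 0.05 with no minimum fold. The script was tested on simulated data. The members, the wider list (63 genes, 2 of them unmatched) and the markers were chosen with earlier results of these data known. All 16 values were given, in each role, for the members with the largest and smallest change with both drugs and the highest level, and for those with the smallest adjusted p (2 in each direction) of the interaction and of gefitinib against AZ1366. Alternatives were a pseudocount of 0.1, a minimum mean of 5 FPKM or none, median-ratio and quantile scaling, no variance trend, only the libraries compared, the sum of a symbol's rows, a replicate block, a correction for transcript length and GC content (5 spline terms each, 11537 loci with a length), each library left out, and vehicle 1 with AZ1366 1 left out. Coordinates of loci are on hg19 and those of promoters on GRCh38.p14; none were converted.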

Additional observations from a re-analysis of the deposited data

Results flagged for a closer look

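Over 51 members in 4 treatment groups of 4 libraries, 9 values (4.41% of groups) stood so far from the other 3 that the gap exceeded Dixon's critical value; chance alone flags about 1 in 20 groups. In AZ1366 replicate 1, MCM3 was at 30.15 FPKM (the others 24.5 to 25.4), DBF4 at 16.85 (9.39 to 10.49) and CHAF1A at 8.982 (5.73 to 6.09), all nearer to vehicle than the others. In vehicle replicate 1, FEN1 was at 62.86 FPKM (57.1 to 58.1) and UHRF1 at 47.4 (37.4 to 39.1). POLD2 was at 67.97 FPKM in AZ1366 replicate 2 (71.4 to 71.9), and CHAF1B at 9.409 in AZ1366 replicate 3 (10.2 to 10.4). With both drugs, RPA2 was at 24.59 FPKM in replicate 2 (27.3 to 27.8) and CHAF1B at 6.998 in replicate 1 (7.53 to 7.60). No explanation was tested.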

How the results depend on the processing

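Leaving out 1 library at a time, members called lower ranged from 44 to 46 with gefitinib, 30 to 33 with AZ1366, 49 to 49 with both, 46 to 48 for both against gefitinib, 50 to 50 for both against AZ1366, 32 to 41 for gefitinib against AZ1366 and 10 to 23 for the interaction. Members called higher ranged from 0 to 1 with gefitinib (1 without vehicle replicate 2) and 2 to 4 with AZ1366. Members called higher with AZ1366 numbered 5 after quantile normalization, 5 after median-ratio scaling and 1 after the length and GC correction, against 3. All-locus calls higher with AZ1366 were 3341 after quantile normalization and 3540 after median-ratio scaling, in place of 2168. With both drugs that correction left 0 called higher against 1, and a fit of only the libraries compared called 1 member higher for both against gefitinib, against 0. Such a fit was not possible for the interaction, which uses all libraries. Of 9574 values of single members under the alternatives, 105 differed in sign from the value reported, and in 3 of the 105 the change was called in either fit. These 3 and 1 gene of the wider list were, with AZ1366, RFC3 (-0.178) and ORC3 (-0.104) after the length and GC correction and RPA1 (0.0179) after median-ratio scaling, and GUK1 for both against gefitinib (-0.0472) after the length and GC correction. The cause was not tested. Under median-ratio scaling the all-locus calls were 4691 lower and 4708 higher with both drugs, in place of 5753 and 3488, and 3250 and 3099 for both against gefitinib, in place of 4338 and 1780. Depth per library is unknown, which limits low members such as GINS4 and MCM10.

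The labels number the libraries of each group 1 to 4. Nothing in the labels ties equal numbers to a shared culture or day, so the libraries were not taken as paired. Same-numbered libraries deviated together in part: deviations correlated above 0.1 in 16 of 24 pairs (r from -0.447 to 0.539). All 6 pairs of replicate 1 and all 6 of replicate 3 were among those above 0.1. The median was -0.0914 for other numbers, and 8 of 16 libraries correlated best with their own number. Whether equal numbers share a culture or day was not tested. With the replicate number as a block, 46 members were lower with gefitinib, 31 with AZ1366 (3 higher), 49 with both (1 higher), 47 for both against gefitinib, 50 for both against AZ1366, 38 for gefitinib against AZ1366 and 19 for the interaction. Of the 11647 loci, that fit called 4503 lower with gefitinib, 4882 with AZ1366 (2249 higher) and 5845 with both (3543 higher). It called 4666 lower for both against gefitinib, 4355 for both against AZ1366, 2258 for gefitinib against AZ1366 and 186 for the interaction.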
